A study of Homo sapiens with 19 samples.

Results

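QUASARR-seq reads how strongly one DNA element drives transcription by itself and how strongly it acts as an enhancer on a separate minimal promoter. The enhancer read-out of pGAPDH is set here against that of pMYC, the minimal promoters of set 2 that carry the names of GAPDH and MYC. The elements were chosen by name: all that are listed in the enhancer tables of both minimal promoters. They number 2479 of the 3422 different element names of the series, and 2468 of them were tested by the authors in both tables. The other 11 are listed without a test in at least 1 table and were left out. All libraries come from K-562, an established human leukaemia cell line, and the pGAPDH, pMYC and pAPOBEC3F plasmids were electroporated together as 1 pool. Per the labels, each electroporation took 20 µg of plasmid, 5 electroporations made a technical replicate, a biological replicate held 2 technical replicates, and cells were harvested after 6 h. Each replicate gave 1 RNA and 1 DNA library of the enhancer barcode, eaBC, so the comparison rests on 2 RNA and 2 DNA libraries. Both minimal promoters were read in the same 4 libraries, so replicate 1 and replicate 2 are shared by them. Which kind replicates 1 and 2 are is not given in the labels, so they may be technical, and p-values measure only the spread between these libraries. The cells carried reporters on plasmids for hours only, so nothing here bears on the GAPDH or MYC gene in its chromosome.

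An enhancer is a stretch of DNA that raises transcription from a promoter it is linked to, and a minimal promoter is a short core that supports little transcription unless something activates it. GAPDH encodes a glycolytic enzyme and is transcribed in nearly all cells, while MYC encodes a growth-promoting transcription factor whose transcription is tightly regulated. In reporter assays, core promoters of widely expressed genes have often been described as strong by themselves and as gaining less from enhancers than promoters of regulated genes.

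The shared elements held 2736478 and 2935732 RNA reads under pGAPDH in replicates 1 and 2, against 400575 and 425577 under pMYC. DNA reads were 1150918 and 1130738 under pGAPDH and 830676 and 815672 under pMYC. An element had a median of 1812 RNA and 742 DNA reads over both replicates under pGAPDH, and of 204.5 RNA and 455 DNA reads under pMYC. Elements found only in the pGAPDH table numbered 574 and had a median of 201 DNA reads, and those only in the pMYC table numbered 85 with 203, so the shared elements are the more deeply sampled ones. The labels name no molecular identifiers, so reads are not taken as independent molecules.

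Reporter output was far higher under pGAPDH. Of the eaBC reads listed in the deposited tables of the pool's 3 minimal promoters, which leave out reads of any element not listed, the shared elements took 77.3% and 77.4% of the RNA reads of replicates 1 and 2 under pGAPDH, with 40.4% of the DNA reads of each. Under pMYC they took 11.3% and 11.2% of the RNA reads, with 29.2% of the DNA reads. Summed over elements this came to 2.38 and 2.60 RNA reads per DNA read under pGAPDH, against 0.482 and 0.522 under pMYC. Output is used below for the log2 of an element's share of these listed RNA reads over its share of the listed DNA reads, with 0.5 reads added. Both minimal promoters sit in the same libraries, so they share the same totals. Median output was 0.87 under pGAPDH and -1.68 under pMYC. Per element, output was a median of 5.75-fold higher under pGAPDH, with medians of 5.68-fold and 5.74-fold in replicates 1 and 2. In limma's moderated test with Benjamini-Hochberg adjustment, 2454 of 2468 elements (99.4%) were higher under pGAPDH and 1 (0.0405%) was lower at an adjusted p under 0.05. Output was higher under pGAPDH in both replicates for 2463 elements. This scale and its test were added after the values were seen.

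**Figure D1:**
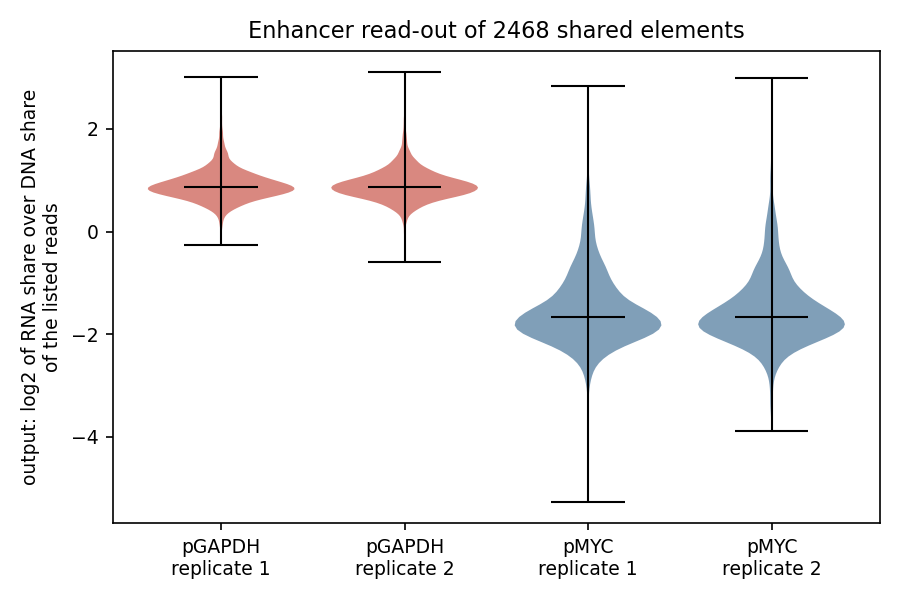
Output (log2 of the share of listed RNA reads over that of listed DNA reads, vertical axis) of the 2468 shared elements under pGAPDH and pMYC, by replicate. Shapes show the distribution over elements, the middle bar is the median and the end bars are the lowest and highest element. The pGAPDH shapes are short and high, around medians near 0.87, and the pMYC shapes are long and low. Only the single highest element of each shape reaches about the same level.

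The elements spread much less under pGAPDH. From the 5th to the 95th percentile, output covered 0.50 to 1.45 under pGAPDH, a 1.93-fold range, against -2.34 to -0.07 under pMYC, a 4.81-fold range. The highest output was 3.06 under pGAPDH, for TRE5GCCC0106.fwd, and 2.92 under pMYC, for KSSAT0006.fwd, so the single highest elements lay close. The 95th percentiles were still apart, at 1.45 and -0.07, and the 5th percentiles further apart, at 0.50 and -2.34. Under pMYC, 19 elements (0.770%) exceeded in both replicates the median output seen under pGAPDH. The lowest pMYC values rest on few RNA reads, down to 0 and 1 in replicates 1 and 2 for TRE6_060S0004.rev.

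The gap between the minimal promoters narrowed as the pMYC activity of the elements rose. To keep the noise of a value from sorting the element it belongs to, elements were ranked into 10 groups by pMYC activity in replicate 1 and read in replicate 2. In the lowest group, median output was 0.70 under pGAPDH and -2.17 under pMYC, and the median fold was 7.04. In group 5 it was 0.86 under pGAPDH and -1.73 under pMYC, a median fold of 5.99. In the highest group it was 1.38 under pGAPDH and -0.10 under pMYC, and the median fold was 2.90. Output thus climbed by 0.67 log2 units across the groups under pGAPDH and by 2.08 under pMYC. With the replicates exchanged, the lowest and highest groups had median folds of 6.83 and 2.85. From group 1 to group 7 the median fold fell only to 5.50, and most of the narrowing lay in groups 8 to 10. The groups were made from pMYC values alone. Some narrowing follows from that choice wherever values under the minimal promoters are imperfectly correlated, and exchanging replicates does not remove it. Groups by pGAPDH activity are not given here.

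**Figure D2:**
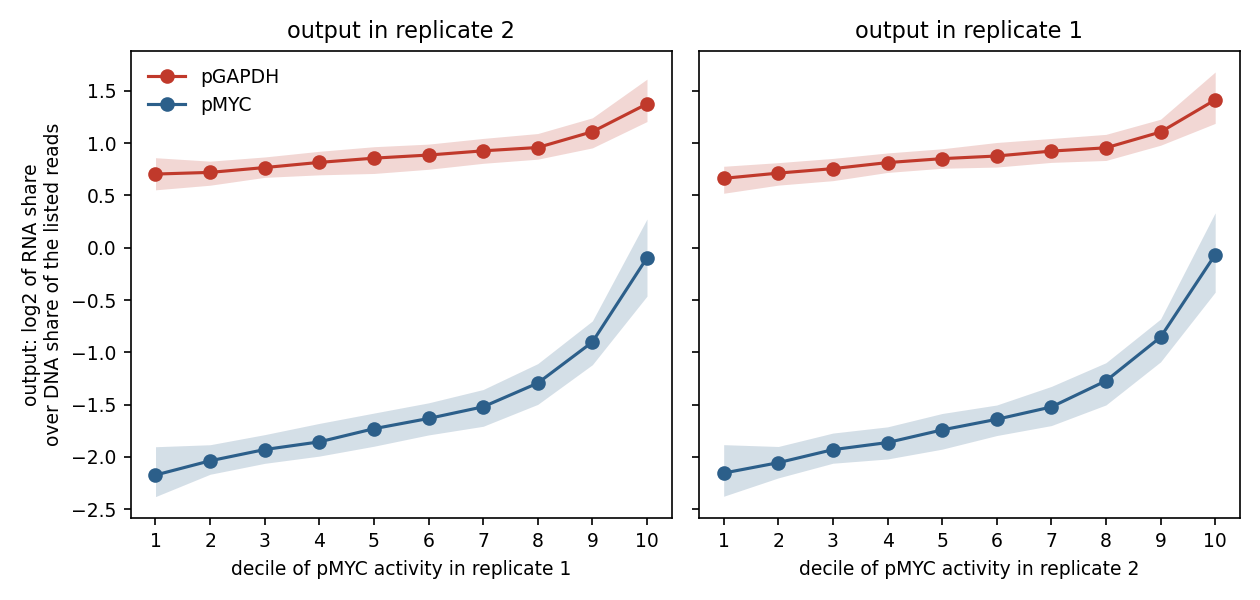
Median output (log2, line) and interquartile range (band) under pGAPDH and pMYC for 10 groups of elements ordered from low to high pMYC activity. The replicate used to order the elements is named under each panel, and output was read in the other replicate. The pMYC line climbs steeply in groups 8 to 10 and the pGAPDH line much less, from 0.70 to 1.38 in the left panel.

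A few elements brought pMYC to the level of pGAPDH. KSSAT0006.fwd had an output of 2.66 and 2.62 under pGAPDH in replicates 1 and 2, against 2.84 and 3.0 under pMYC. It is the only element that was lower under pGAPDH in both replicates, at 0.825-fold (limma adjusted p = 0.017), and it rested on 5260 RNA reads under pGAPDH and 1304 under pMYC. KSSAT0024.rev had 2.24 and 2.17 under pGAPDH and 2.10 and 1.90 under pMYC, a fold of 1.15 that did not pass the test (limma adjusted p = 0.059). In both replicates its pGAPDH values lay above its pMYC values. KSSAT0004.rev had 2.60 and 2.47 under pGAPDH and 2.19 and 2.45 under pMYC, a fold of 1.16 (limma adjusted p = 0.095). RSV.fwd had 1.91 and 2.06 under pGAPDH and 1.62 and 1.61 under pMYC, a fold of 1.29 (limma adjusted p = 0.00020). Elements with a fold under 2 numbered 42 of 2468.

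The remaining comparisons ask whether an element's activity relative to the others depends on the minimal promoter. For this, each of the 8 columns of log2 reads was centred on its median over the shared elements, which removes the difference in output. The value is called centred log2 RNA/DNA, and its zero point is set by the columns' medians. Its SD over the 2468 elements was 0.307 under pGAPDH and 0.701 under pMYC, a ratio of 0.438, with 0.441 and 0.442 in the single replicates. The noise of 1 replicate had an SD of 0.133 under pGAPDH and 0.280 under pMYC, and with its variance subtracted the ratio was 0.435. The narrower pGAPDH values were nearly as repeatable: Pearson's r between replicates, across elements, was 0.828 under pGAPDH and 0.853 under pMYC. Centred values of at least 1 were seen for 31 elements under pGAPDH and 225 under pMYC, and all 31 were among the 225. Across the 2468 elements, which share libraries and are not independent replicates, r between pGAPDH and pMYC was 0.771 and Spearman's rho was 0.692.

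The difference of the centred values, pGAPDH minus pMYC, was tested for each element by limma on the log2 values of the 8 columns. At a Benjamini-Hochberg adjusted p under 0.05, 409 elements (16.6%) were higher under pGAPDH and 425 (17.2%) were lower. The lower elements were those active under pMYC: their median centred log2 RNA/DNA was 0.27 under pGAPDH and 0.95 under pMYC, with a median difference of -0.70. The higher elements were mostly weak under pMYC: their medians were -0.07 under pGAPDH and -0.52 under pMYC, with a median difference of 0.43. All but 3 of the 409 lay below the zero point under pMYC. So did 1110 (67.9%) of the 1634 elements without a call and 1 of the 425 lower elements. The median of all shared elements under pMYC was itself below the zero point, at -0.15. The pMYC value enters both the call and these levels, so the levels are a description. The split of calls depends on the zero point. The authors' own zero points shift the median difference of all elements from 0.09 to -0.22. There 26 elements were higher and 821 lower, the 26 all among the 409 and the 821 including all 425. A downward shift of every difference favours that nesting. Without DNA replicate 1 the fit called 64 higher and 247 lower, and without DNA replicate 2 it called 65 and 250.

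**Figure D3:**
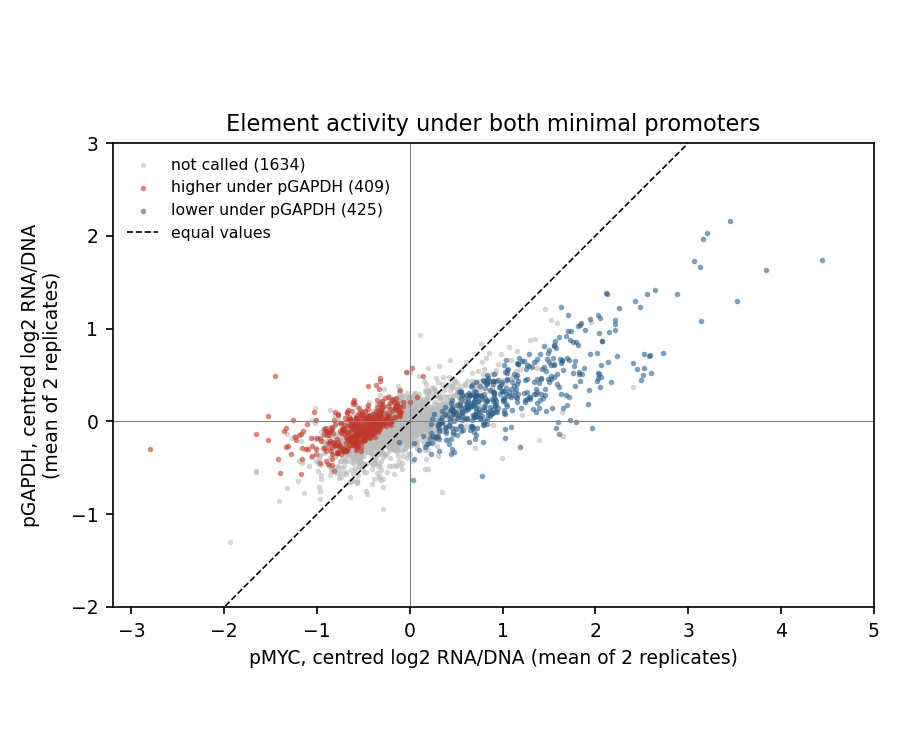
Centred log2 RNA/DNA under pGAPDH (vertical axis) and pMYC (horizontal axis), each the mean of 2 replicates, for the 2468 shared elements. Colours mark the 409 elements called higher and the 425 called lower under pGAPDH at a limma adjusted p under 0.05, and the dashed line marks equal values. The cloud is flatter than the dashed line, and the lower calls lie at its right and the higher calls at its left.

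Among the elements that were lower under pGAPDH, some were strong under both minimal promoters and some only under pMYC. KSSAT0006.fwd had centred values of 1.76 and 1.71 under pGAPDH against 4.34 and 4.54 under pMYC, a difference of -2.71 (SE 0.10, limma adjusted p = 2.7e-08). RSV.fwd had 1.01 and 1.15 under pGAPDH against 3.13 and 3.16 under pMYC, a difference of -2.06 (SE 0.07, limma adjusted p = 1.6e-08). Both stood well above the zero point under both minimal promoters, and their values did not overlap between them. KSUAT0001.rev had 0.49 and 0.51 under pGAPDH against 2.51 and 2.53 under pMYC, a difference of -2.02 (SE 0.10, limma adjusted p = 3.6e-07). TRE5GCLR0029.rev had 0.43 and 0.61 under pGAPDH against 2.47 and 2.72 under pMYC, a difference of -2.08 (SE 0.17, limma adjusted p = 8.6e-06). KSUAT0001.rev and TRE5GCLR0029.rev had smaller centred values under pGAPDH but still ranked high there, each at a percentile rank of 93.9 among the pGAPDH values. Their pGAPDH replicates were closer to each other than to any pMYC value.

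Other strong pMYC elements sat at the zero point under pGAPDH. KSSAT0067.fwd had -0.02 and 0.00 under pGAPDH against 1.56 and 1.63 under pMYC, a difference of -1.60 (SE 0.10, limma adjusted p = 1.8e-06). TRE5SPNN0073.fwd had 0.09 and -0.06 under pGAPDH against 1.77 and 1.67 under pMYC, a difference of -1.71 (SE 0.13, limma adjusted p = 4.1e-06). In percentile ranks, KSSAT0067.fwd stood at 54.1 among the pGAPDH values and at 96.0 among the pMYC values, and TRE5SPNN0073.fwd at 56.6 among the pGAPDH values and at 96.7 among the pMYC values. KSUAT0029.fwd went further and lay below the zero point under pGAPDH, at -0.17 and -0.39, against 1.19 and 1.18 under pMYC, a difference of -1.46 (SE 0.17, limma adjusted p = 8.3e-05). The ranks of KSUAT0029.fwd were 16.1 under pGAPDH and 92.7 under pMYC. TRE6_020S0071.fwd was similar, with -0.22 in both replicates under pGAPDH against 0.71 and 0.87 under pMYC, a difference of -1.01 (SE 0.08, limma adjusted p = 6.6e-06). KSSAT0067.fwd and TRE5SPNN0073.fwd were chosen after their values were seen.

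The leading pGAPDH elements were also strong under pMYC. TRE5GCCC0106.fwd had the highest pGAPDH activity, 2.11 and 2.20, against 3.43 and 3.48 under pMYC, a difference of -1.30 (SE 0.07, limma adjusted p = 8.1e-07). Its other orientation, TRE5GCCC0106.rev, had 2.00 and 2.06 under pGAPDH against 3.27 and 3.15 under pMYC, a difference of -1.18 (SE 0.06, limma adjusted p = 3.6e-07). TRE6_HRHR0051.fwd had 2.03 and 1.90 under pGAPDH against 3.24 and 3.08 under pMYC, a difference of -1.19 (SE 0.17, limma adjusted p = 0.00043). All of these led KSSAT0006.fwd under pGAPDH and trailed it under pMYC, in both replicates. TRE5GCCC0106.rev was named after its value was seen. The sign of these 3 differences turns once the narrower spread under pGAPDH is scaled out, as given below.

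The largest rises under pGAPDH belonged to elements that were low under pMYC, with few RNA reads there. This did not hold for all 409 higher elements, which had a median of 261 pMYC RNA reads over both replicates. The median of all shared elements was 204.5. TRE5NGCC0103.rev had centred values of 0.63 and 0.34 under pGAPDH against -1.48 and -1.43 under pMYC, a difference of 1.94 (SE 0.39, limma adjusted p = 0.0039). It was active under pGAPDH and among the lowest under pMYC, but its pMYC value came from 6 RNA reads in each replicate and its pGAPDH value from 222 over both. TRE6_200S0013.fwd had -0.05 and 0.18 under pGAPDH against -1.84 and -1.22 under pMYC, a difference of 1.59 (SE 0.26, limma adjusted p = 0.00092), with 7 and 9 pMYC RNA reads. KNGUT0024.fwd had -0.25 and 0.04 under pGAPDH against -1.38 and -1.33 under pMYC, a difference of 1.25 (SE 0.34, limma adjusted p = 0.018), with 10 and 7 pMYC RNA reads. Both lay near the zero point under pGAPDH and far below it under pMYC. The fitted difference of TRE6_060S0004.rev was 2.50 (SE 0.61, limma adjusted p = 0.011) but rested on 0 and 1 pMYC RNA reads, so its size was not measurable at this depth. Without DNA replicate 1, TRE5NGCC0103.rev, KNGUT0024.fwd and TRE6_060S0004.rev were no longer called (limma adjusted p = 0.081, 0.14 and 0.18).

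Better covered examples were smaller. KNGAT0080.rev had 0.37 and 0.38 under pGAPDH against -0.49 and -0.41 under pMYC, a difference of 0.83 (SE 0.15, limma adjusted p = 0.0025), with 79 and 81 pMYC RNA reads. KUUAT0093.fwd had 0.48 and 0.45 under pGAPDH against -0.37 and -0.27 under pMYC, a difference of 0.79 (SE 0.14, limma adjusted p = 0.0021), with 131 and 144 pMYC RNA reads. Both lay above the zero point under pGAPDH and below it under pMYC, in both replicates. The 3 higher elements that were also above the zero point under pMYC were 54347.rev, TRE5GCLR0140.rev and TRE6_020S0060.rev, with differences of 0.54, 0.35 and 0.18 and limma adjusted p of 0.043, 0.049 and 0.046. These calls were not made without DNA replicate 1 (adjusted p 0.094, 0.20 and 0.065) or without DNA replicate 2 (0.24, 0.26 and 0.26), nor, for the last 2, with the replicate block (0.051 and 0.050). At the authors' zero points the difference of TRE6_020S0060.rev turned to -0.13. The elements of this paragraph were chosen after their values were seen. Conversely, TRE6_060S0042.fwd was the only lower element below the zero point under pMYC, with -0.22 and -0.23 under pGAPDH against -0.16 and -0.08 under pMYC (difference -0.11, SE 0.03, limma adjusted p = 0.038), a call not made without DNA replicate 1 (adjusted p 0.094) or without DNA replicate 2 (0.20).

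**Figure D4:**
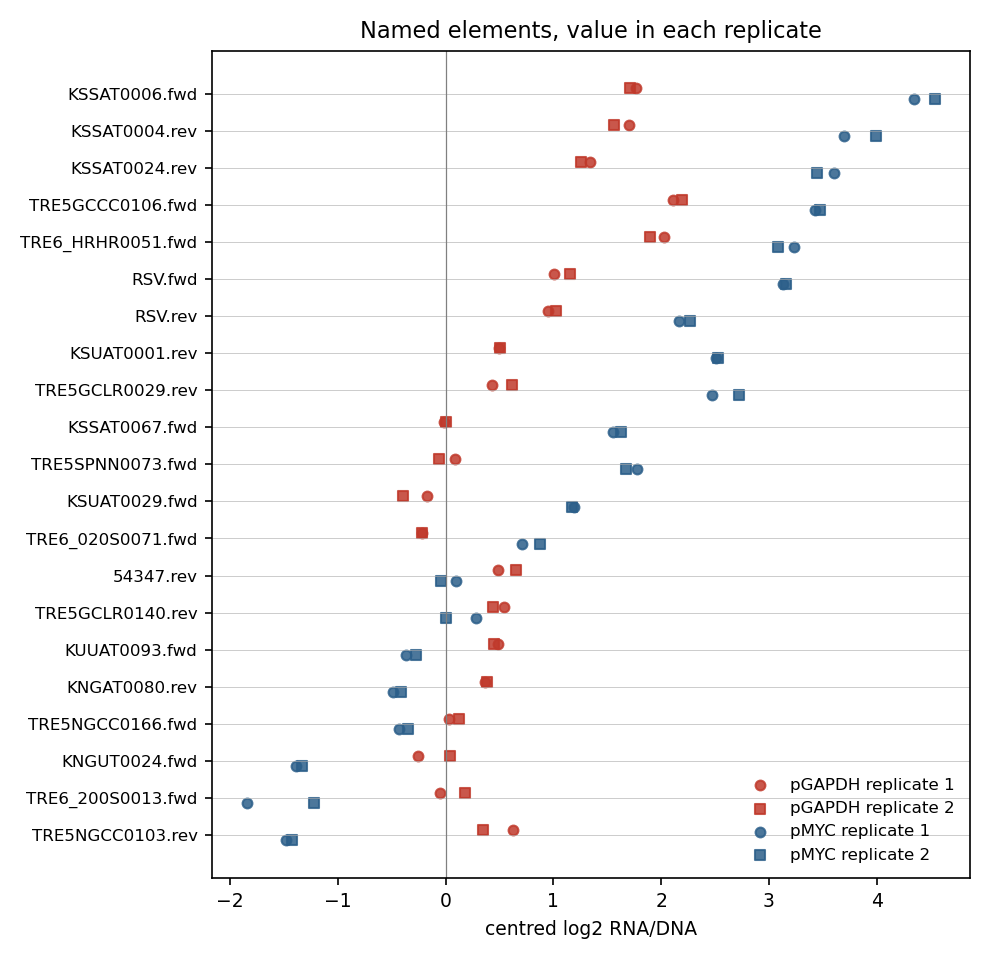
Centred log2 RNA/DNA (horizontal axis) of named elements in each replicate under pGAPDH and pMYC, circles for replicate 1 and squares for replicate 2. From KSSAT0006.fwd down to TRE6_020S0071.fwd the pGAPDH values lie left of the pMYC values, and from 54347.rev down they lie right of them. Replicates of 1 minimal promoter are mostly closer together than the minimal promoters are, with the widest pair at -1.84 and -1.22 for TRE6_200S0013.fwd under pMYC.

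How much of this goes beyond the narrower spread under pGAPDH was asked in other ways. In percentile ranks within each minimal promoter, which depend on neither zero point nor scale, an element shifted by a median of 11.8 percentile points. Its ranks in the replicates differed by a median of 8.71 points under pGAPDH and 7.74 under pMYC. The shift is between means of 2 replicates, while these differences are between single replicates and carry more noise. The values are thus not on a like scale. The limma fit on ranks called 0 elements at an adjusted p under 0.05, with 534 at an unadjusted p under 0.05 and a lowest adjusted p of 0.13. A count of 0 does not show that the ranks were alike. This fit and the next used per-replicate ratios, with fewer columns than the main fit, so their counts also reflect a change of model. After dividing the centred values of each minimal promoter and replicate by their SD and centring them again, limma called 7 elements higher (0.284%) and 12 lower (0.486%). The 7 included both orientations of TRE5GCCC0106 and TRE6_HRHR0051.fwd, which were lower before that step, with KNGAT0080.rev, KUUAT0093.fwd and TRE5NGCC0103.rev. The 12 included KSUAT0001.rev, KSUAT0029.fwd, KSSAT0067.fwd, TRE5SPNN0073.fwd and TRE6_020S0071.fwd. KSSAT0006.fwd, RSV.fwd and KSSAT0024.rev were not called after that step (limma adjusted p = 0.12, 0.11 and 0.082). The 7 and 12 had adjusted p of 0.047 to 0.050, and this step was added after the values were seen.

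Element classes, read from the leading letters of the names, differed in how much output pGAPDH added. KSSAT elements (110) had a median output 3.52-fold higher under pGAPDH, with 3.33 and 3.57 in replicates 1 and 2, and KSUAT elements (103) 4.28-fold, with 4.14 and 4.20. TRE6_HRHR (37) and TRE6_HRHP (47) elements had 4.02-fold and 4.35-fold. At the other end stood KNGUT (138) with 6.84-fold, KNGAT (111) with 6.78-fold, KNGAE (148) with 6.54-fold, TRE5NGCC (202) with 6.46-fold and the 31 elements named by a number alone with 6.84-fold. The median of all elements, 5.75-fold, lay between these groups in both replicates. The order of these folds needs no zero point. What the class letters stand for is not given in the labels.

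The classes also differed in their calls. Of 110 KSSAT elements 74 were lower and 0 higher under pGAPDH, and of 103 KSUAT elements 48 were lower and 4 higher, beside 17.2% and 16.6% of all elements. Of 47 TRE6_HRHP elements 15 were lower and 0 higher, and of 37 TRE6_HRHR elements 14 were lower and 3 higher. Lower calls were also frequent in KUUAE, with 45 of 152 (29.6%) beside 17 higher, and in TRE6_020S, with 28 of 114 (24.6%) beside 16 higher. The median differences of KUUAE and TRE6_020S were only -0.05 and -0.01. Median differences were -0.61 for KSSAT, -0.33 for KSUAT, -0.31 for TRE6_HRHP and -0.42 for TRE6_HRHR. They stayed below 0 with all 3 other zero points, but none of these could have turned them, since each moves all elements alike. The median difference of all elements, 0.09, became -0.22 at the authors' zero points. It became -0.02 on the median ratio and 0.10 with centring on numbered elements. KNGUT had 53 higher (38.4%) and 1 lower element, KNGAT 35 (31.5%) and 0, KNGAE 40 (27.0%) and 0, and TRE5NGCC 40 (19.8%) and 2. The share of higher elements in TRE5NGCC was thus near the 16.6% of all elements and below the 21.1% of KSUUT, which had 26 higher and 15 lower elements. The median differences of KNGUT, KNGAE, KNGAT and TRE5NGCC, 0.35, 0.28, 0.33 and 0.26, became 0.03, -0.03, 0.02 and -0.05 at the authors' zero points, where KNGUT had 3 higher and 5 lower elements. Within classes the spread was narrower under pGAPDH as well, with SDs of 0.34 under pGAPDH and 0.76 under pMYC for KSSAT, and of 0.18 under pGAPDH and 0.32 under pMYC for KNGAE.

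**Figure D5:**
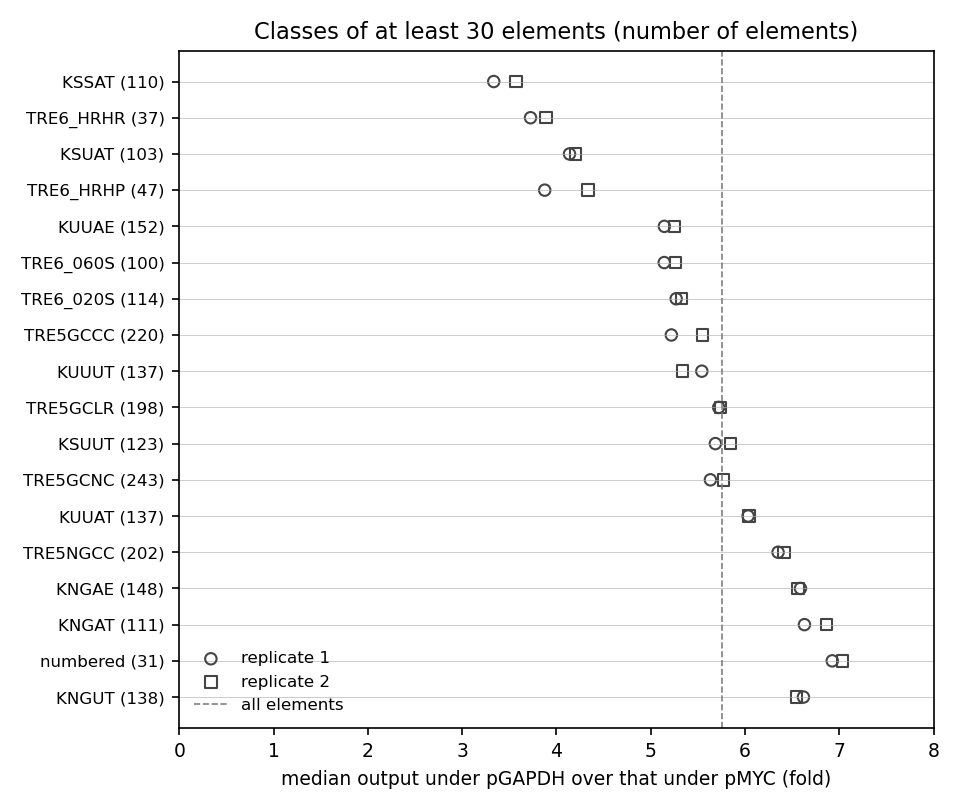
Median output under pGAPDH over that under pMYC (fold, horizontal axis) for the 18 classes of at least 30 shared elements, by replicate, with the number of elements in brackets. The dashed line marks the median of all elements, 5.75-fold. KSSAT, TRE6_HRHR, KSUAT and TRE6_HRHP lie between 3.33-fold and 4.34-fold in both replicates, and KNGUT, KNGAT and the numbered elements at the other end.

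Loci called in both orientations nearly always had the same direction in both. Of 1057 loci measured in both orientations, both were lower at 118, both were higher at 67, only 1 orientation was called at 354, neither was called at 515, and the orientations had opposite calls at 3. Across these loci, Pearson's r of the differences of the forward and reverse elements was 0.563. At the locus KSSAT0021, the forward element had 0.35 and 0.32 under pGAPDH against 1.94 and 1.93 under pMYC (difference -1.60, SE 0.10, limma adjusted p = 1.8e-06). The reverse element KSSAT0021.rev had 0.61 and 0.79 under pGAPDH against 2.30 and 2.17 under pMYC (difference -1.53, SE 0.13, limma adjusted p = 1.3e-05). Both orientations were active under both minimal promoters and differed between them in the same direction. At the locus TRE5NGCC0166, the forward element had 0.03 and 0.12 under pGAPDH against -0.43 and -0.35 under pMYC (difference 0.47, SE 0.11, limma adjusted p = 0.0078). TRE5NGCC0166.rev had 0.02 and -0.04 under pGAPDH against -0.49 and -0.56 under pMYC (difference 0.52, SE 0.08, limma adjusted p = 0.0010). Here both orientations were near the zero point under pGAPDH and below it under pMYC. TRE5NGCC0166.fwd and TRE5NGCC0166.rev were not called without DNA replicate 1 (limma adjusted p = 0.075 and 0.052) or at the authors' zero points (0.34 and 0.14). RSV.rev, the other orientation of RSV.fwd, had 0.95 and 1.02 under pGAPDH against 2.17 and 2.26 under pMYC (difference -1.23, SE 0.09, limma adjusted p = 3.7e-06), so the orientations of RSV were alike under pGAPDH and differed under pMYC.

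The 3 loci with opposite calls were KNGUT0005, KSUUT0108 and TRE6_020S0010, named because they are so few. TRE6_020S0010.fwd had -0.33 and -0.37 under pGAPDH against 0.23 and 0.22 under pMYC (difference -0.58, SE 0.07, limma adjusted p = 8.3e-05). TRE6_020S0010.rev had -0.18 and -0.35 under pGAPDH against -0.54 and -0.60 under pMYC (difference 0.30, SE 0.07, limma adjusted p = 0.010), which became -0.01 at the authors' zero points. The orientations thus differed under pMYC and were alike in level under pGAPDH. The forward elements KSUUT0108.fwd and KNGUT0005.fwd had differences of -0.75 and -0.80 (limma adjusted p = 0.0068 and 0.029), with 49 and 40 pMYC RNA reads. Their reverse elements KSUUT0108.rev and KNGUT0005.rev had 0.40 and 0.52 (limma adjusted p = 0.0090 and 0.0050), with 350 and 188. Without DNA replicate 1, only the forward element of TRE6_020S0010 among these 6 was still called. In set 1, whose pMYC libraries are separate, KNGUT0005.fwd stood at -0.51 and KSUUT0108.fwd at -0.06 relative to the median of the elements shared with set 1, where set 2 pMYC had both above the zero point.

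The authors' own calls of RNA over DNA were also set side by side. In the authors' deposited table, 22.8% of the shared elements were higher under pGAPDH and 478 (19.4%) were lower, and 991 (40.2%) were higher under pMYC and 180 (7.29%) lower. Of these, 484 were higher in both of the authors' deposited tables, which is 86.1% of the pGAPDH list and 48.8% of the pMYC list. Calls in opposite directions were found for 37 elements that were lower under pGAPDH and higher under pMYC in the authors' deposited tables, and for 1, TRE5NGCC0103.rev, with the reverse. The tables were normalized apart, so only calls within a table are set side by side here.

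The promoter read-out of the same plasmids comes from its own paBC libraries, also labelled replicates 1 and 2. Whether these came from the same cells as the eaBC libraries is not given in the labels. There limma called 1110 of 2468 elements (45.0%) higher under pGAPDH and 841 (34.1%) lower, on centred values. Of the 425 elements that were lower in the enhancer read-out, 402 were lower there too, which is 94.6% of the enhancer list and 47.8% of the promoter list. Of the 409 that were higher, 358 were higher there too, which is 87.5% of the enhancer list and 32.3% of the promoter list. The SD of log2 RNA/DNA was 0.620 under pGAPDH and 1.22 under pMYC, a ratio of 0.508, and the median fold of output was 4.57 and 4.54 in replicates 1 and 2. RSV.fwd had a promoter difference of -2.16 and KSSAT0006.fwd of -2.30 (limma adjusted p = 1.8e-11 and 1.6e-10). Opposite directions were found both ways. Higher in the enhancer and lower in the promoter read-out were 8 elements, with enhancer differences of 0.26 to 0.78 and promoter differences of -0.78 to -0.17. Lower in the enhancer and higher in the promoter read-out were 5 elements: KNGUT0005.fwd, KSSAT0026.fwd, TRE5GCLR0119.rev, TRE5GCNC0012.rev and TRE5GCNC0167.rev. The enhancer differences of these 5 were -0.80, -0.92, -0.34, -0.71 and -0.63, and their promoter differences 0.35, 0.27, 0.14, 0.32 and 0.33. Without DNA replicate 1 the enhancer calls of KNGUT0005.fwd and TRE5GCNC0167.rev were not made (limma adjusted p = 0.12 and 0.17), and without DNA replicate 2 those of KNGUT0005.fwd, TRE5GCLR0119.rev and TRE5GCNC0167.rev were not (0.18, 0.095 and 0.17).

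The pool's other minimal promoter, pAPOBEC3F, was read in the same libraries. Over the 2239 shared elements with a pAPOBEC3F value, the SD of centred log2 RNA/DNA was 0.298 under pGAPDH, 0.704 under pAPOBEC3F and 0.690 under pMYC. Noise was not subtracted from these SDs, and pAPOBEC3F had the fewest RNA reads. Its listed elements had a median of 49 and 53 RNA reads in replicates 1 and 2. Medians were 97 and 102 in the pMYC table and 711 and 766 in the pGAPDH table. KSSAT0006.fwd had 5.00 and 4.96 under pAPOBEC3F, and RSV.fwd 2.97 and 2.94, each closer to its pMYC than to its pGAPDH values. KSUAT0029.fwd had 0.62 and 0.66 under pAPOBEC3F, above the zero point as under pMYC. TRE5NGCC0103.rev had -0.11 and -0.43 under pAPOBEC3F, between its pGAPDH and pMYC values, with 36 pAPOBEC3F RNA reads over both replicates.

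Set 1 measured pMYC in other libraries. Over the 1125 elements it shares with the comparison, the SD was 0.264 under pGAPDH, against 0.760 under pMYC in set 1 and 0.668 under pMYC in set 2. Pearson's r across these elements was 0.902 between set 1 pMYC and set 2 pMYC and 0.762 between set 1 pMYC and set 2 pGAPDH. Set 1 gives pMYC values that played no part in the calls, while the pGAPDH values set against them did. All values below are centred over these elements. Of the 188 lower elements with a set 1 value, 187 were also lower under pGAPDH than under set 1 pMYC, with medians of 0.29 under pGAPDH, 1.52 under set 1 pMYC and 1.11 under set 2 pMYC. Of the 223 higher elements, 177 were also higher than under set 1 pMYC, with medians of -0.03 under pGAPDH, -0.15 under set 1 pMYC and -0.33 under set 2 pMYC. The median difference of the higher elements was thus 0.12 against set 1 pMYC and 0.28 against set 2 pMYC. These counts are a description across libraries made apart, with no test. The share of all 1125 elements that lay in each direction against set 1 pMYC is not given here, so the counts have no background beside them. RSV.fwd stood at 3.12 and KSSAT0067.fwd at 1.71 under set 1 pMYC, against 3.34 and 1.78 under set 2 pMYC. KNGUT0024.fwd had -0.06 under pGAPDH, against -0.36 under set 1 pMYC and -1.16 under set 2 pMYC, so most of its difference was not seen against set 1. KNGAT0080.rev had 0.42 under pGAPDH, against -0.18 under set 1 pMYC and -0.26 under set 2 pMYC.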

How the data were processed

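Each table gives 2 DNA and 2 RNA columns per element, which hold signal values as deposited, with no unit named in the header. All were whole multiples of 1 step per column (tolerance 0.02), and the step was taken as 1 read. The authors worked with hg38, fastp, edgeR and limma, per the submitters' processing notes. Aligner and barcode matching are not given in the sources used here. Per the file headers, each table also holds log2 fold changes (RNA over DNA) that the authors fitted with limma. Its adjusted p-values are deposited from that fit, and calls were read at 0.05.

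Recovered reads plus 0.5 were put on the log2 scale, and each of the 8 columns of the pGAPDH and pMYC enhancer tables was centred on its median over the 2468 shared elements. limma (lmFit, eBayes with trend) tested RNA minus DNA under pGAPDH minus the same under pMYC, with Benjamini-Hochberg adjustment over all 2468 elements and no block. The same fit was run on the promoter tables and on uncentred shares of the listed reads. Ranks and values divided by their SD were fitted on the log2 RNA/DNA of each minimal promoter and replicate. That leaves fewer columns and fewer residual degrees of freedom than the 8 columns of the main fit. The values divided by their SD were centred again on the median of each column. Same-numbered columns are paired because both minimal promoters were read in the same libraries; correlations of their deviations from the group means were -0.02 to 0.03.

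Named elements have the same sign in both replicates and at least 20 DNA reads over both replicates under each minimal promoter. By rule they are, 1 per locus, the largest called differences, the highest elements, the largest per class, loci called alike in both orientations, RSV, and opposite calls of the authors. Both orientations are named for RSV and for the loci called alike. Others were named outside these rules. They are the loci with opposite calls, the elements lower in the enhancer and higher in the promoter read-out, and TRE6_060S0042.fwd. The elements said above to be chosen or named after their values were seen are outside the rules too. The members and lists were chosen with earlier results of these data known. Alternatives were other zero points, 2 reads added, a minimum of 20 mean reads, 1 element per locus, stricter thresholds, a replicate block, edgeR on the recovered reads, and 1 library left out. Python 3.11.15 with pandas 2.3.3, R 4.3.3, limma 3.58.1 and edgeR 4.0.16 were used. No sequence or position of an element was used here.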

Additional observations from a re-analysis of the deposited data

Results flagged for a closer look

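All results here were picked out because the RNA over DNA effect differed between pGAPDH and pMYC by the test of the difference itself, limma at an adjusted p under 0.05. By that test 409 elements were higher and 425 lower under pGAPDH. All differences below are centred log2 RNA/DNA, pGAPDH minus pMYC.

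The elements with the lowest values were KSSAT0006.fwd at -2.71, KSSAT0024.rev at -2.22, KSSAT0004.rev at -2.21, TRE5GCLR0029.rev at -2.08 and RSV.fwd at -2.06, all lower in both replicates. Other elements lower under pGAPDH were KSUAT0001.rev at -2.02, TRE5SPNN0073.fwd at -1.71, KSSAT0067.fwd at -1.60 and KSUAT0029.fwd at -1.46. The leading pGAPDH elements TRE5GCCC0106.fwd, TRE5GCCC0106.rev and TRE6_HRHR0051.fwd had -1.30, -1.18 and -1.19, and TRE6_020S0071.fwd had -1.01. RSV.rev had -1.23, and both orientations of KSSAT0021 were lower, KSSAT0021.fwd at -1.60 and KSSAT0021.rev at -1.53.

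The highest difference was that of TRE6_060S0004.rev at 2.50, with 1 pMYC RNA read in all. TRE5NGCC0103.rev had 1.94, TRE6_200S0013.fwd 1.59 and KNGUT0024.fwd 1.25. KNGAT0080.rev had 0.83, KUUAT0093.fwd 0.79, TRE5NGCC0166.fwd 0.47 and TRE5NGCC0166.rev 0.52. Above the zero point under both minimal promoters were 54347.rev at 0.54, TRE5GCLR0140.rev at 0.35 and TRE6_020S0060.rev at 0.18.

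The orientations of 1 locus went apart for KNGUT0005.fwd at -0.80 and KNGUT0005.rev at 0.52, for KSUUT0108.fwd at -0.75 and KSUUT0108.rev at 0.40, and for TRE6_020S0010.fwd at -0.58 and TRE6_020S0010.rev at 0.30. Lower in the enhancer and higher in the promoter read-out were KSSAT0026.fwd at -0.92, TRE5GCNC0012.rev at -0.71, TRE5GCNC0167.rev at -0.63 and TRE5GCLR0119.rev at -0.34, besides KNGUT0005.fwd. TRE6_060S0042.fwd, lower though already below the zero point under pMYC, had -0.11.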

How the results depend on the processing

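The authors' zero points gave 26 higher and 821 lower elements, centring on elements named by a number gave 248 and 352, and centring on the median ratio gave 174 and 514. All 425 lower elements stayed lower at the authors' zero points and on the median ratio, which both move every difference down. With centring on numbered elements, which hardly moves the differences, 343 of the 425 stayed lower. On the common library scale 2454 were higher and 1 lower, and after equal spread 7 and 12. With an adjusted p under 0.01 there were 154 higher and 282 lower, with a difference of at least 1 there were 19 and 106, and with 1 element per locus, which tests 1411 elements, 239 and 239. Leaving out 1 library gave 64 to 533 higher and 247 to 428 lower elements, the lowest counts without DNA replicate 1 or 2. The replicate block gave 368 higher and 415 lower elements, and the block by library 376 and 410. edgeR gave 470 and 461. In the promoter read-out the replicate block gave 1118 higher and 835 lower elements. The count of rank shifts was 0 in all settings tried.

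The spread ratio was 0.427 by interquartile range, 0.435 with noise variance subtracted, 0.450 with 2 reads added, 0.448 with 1 element per locus and 0.441 to 0.442 in single replicates. The log2 shift of output was 2.31 from summed reads, 2.77 for the numbered elements and 2.51 to 2.52 in single replicates, against 2.52.

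Of 38 named elements, all called, the sign turned for TRE5GCCC0106.fwd (1.87), TRE5GCCC0106.rev (1.81), TRE6_HRHR0051.fwd (1.67), KSUUT0108.rev (-0.11) and TRE6_020S0010.rev (-0.16) after equal spread. These values are in SD units and cannot be set beside log2 differences in size. At the authors' zero points the sign also turned for TRE6_020S0010.rev (-0.014) and TRE6_020S0060.rev (-0.13), in log2 units. The call was lost with the sign kept for 24 after equal spread, for 7 each at the authors' zero points and with centring on numbered elements, for 5 on the median ratio, for 15 and 12 without DNA replicates 1 and 2, for 2 and 5 without RNA replicates 1 and 2, for 2 with the replicate block, for 3 with the block by library, and for 1 each with edgeR and 2 reads added. The cause was not tested. The lower RNA depth under pMYC limits how well low pMYC values are known.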
